A study of Rattus norvegicus with 40 samples.

Results

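Microglial identity and phagocytosis were followed through 9 genes, Trem2, Tyrobp, Csf1r, Cx3cr1, P2ry12, Tmem119, Aif1, Itgam and Cd68. They were chosen by name in the hippocampus table of read counts and joined by Ensembl gene identifier to the tables of the amygdala, anterior cortex and cerebellum, and all 9 were found among the 25958 identifiers of the 4 tables, of which 20814 were in every table. The libraries came from total RNA of rat brain taken 12 months after a blast exposure or a sham exposure, 5 blast and 5 sham libraries for each of the 4 regions, or 40 in all. The animals of every group were rats, and the groups differed by region and by exposure. The sources used here do not state strain, sex, age, the number and strength of the blasts or any further treatment. Titles carry a number (Hip_4, Hip_8, Hip_22, Hip_88 and Hip_666 in blast, 11, 13, 14, 15 and 33 in sham) that recurs across regions, without a statement that a number is an animal, so the p-values measure only the spread between these libraries. 1 amygdala sham column could not be tied to a numbered sample and is called the unnumbered amygdala sham library.

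Microglia are the resident macrophages of the brain parenchyma. In undisturbed tissue they carry purine and fractalkine receptors with which they survey neurons, they depend on signals through the CSF1 receptor for survival, and they clear debris with lipid-sensing and complement receptors that lead to the lysosome. On injury or in disease, surveillance genes such as P2ry12 and Tmem119 are known to be reduced while lysosomal and TREM2-dependent genes are raised.

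The promoters are shown because the 9 genes were lower together in the cerebellum, and because Itgam and Cd68 had the smallest mean differences from it. RefSeq sequences (GRCr8) were found for 5 of the 9 genes, Trem2, Cx3cr1, Csf1r, Itgam and Cd68. The 250 bases before the annotated start are given for 4 of them, 5′ to 3′ on the strand of the gene, from chr9:20151780-20152029 for Trem2, chr8:128677067-128677316 for Cx3cr1 and chr10:54882442-54882691 for Cd68 (minus strand), and from chr1:192089342-192089591 for Itgam (plus strand). Capitals mark GAGGAA, a core of the type bound by the macrophage lineage factor PU.1, and TGACTCA, the AP-1 motif, each searched on both strands, so that TTCCTC and TGAGTCA are the same motifs read from the other strand. The motifs share no bases here.
Trem2: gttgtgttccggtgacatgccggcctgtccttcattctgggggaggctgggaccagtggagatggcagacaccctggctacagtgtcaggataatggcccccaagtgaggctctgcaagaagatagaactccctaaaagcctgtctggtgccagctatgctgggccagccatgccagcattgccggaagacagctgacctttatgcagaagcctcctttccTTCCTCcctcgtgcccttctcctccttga
Cx3cr1: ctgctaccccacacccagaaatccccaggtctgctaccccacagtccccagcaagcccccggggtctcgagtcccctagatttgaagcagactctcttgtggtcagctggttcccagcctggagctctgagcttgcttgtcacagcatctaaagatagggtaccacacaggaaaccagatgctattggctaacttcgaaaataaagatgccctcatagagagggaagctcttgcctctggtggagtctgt
Itgam: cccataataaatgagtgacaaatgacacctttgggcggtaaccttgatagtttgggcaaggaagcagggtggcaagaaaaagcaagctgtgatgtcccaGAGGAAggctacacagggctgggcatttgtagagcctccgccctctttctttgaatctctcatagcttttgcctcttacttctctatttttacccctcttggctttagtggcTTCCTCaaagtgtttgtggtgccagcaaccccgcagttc
Cd68: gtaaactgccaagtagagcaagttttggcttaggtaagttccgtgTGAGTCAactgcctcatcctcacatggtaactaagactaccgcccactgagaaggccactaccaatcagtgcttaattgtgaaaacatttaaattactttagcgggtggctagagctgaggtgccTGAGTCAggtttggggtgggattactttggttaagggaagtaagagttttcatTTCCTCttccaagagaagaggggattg
The GAGGAA core was found in the promoters of Trem2 (1 match), Itgam (2 matches), Cd68 (1 match) and Csf1r (2 matches), and in 23.3% of the 33469 RefSeq promoters of the same length. In Trem2 and Cd68 the match began 29 and 27 bases before the start. The AP-1 motif was found in Cd68, at 205 and 80 bases before the start, and in 4.05% of all promoters. Neither string of letters was found in the Cx3cr1 window. A match is a description of letters, not of a bound site.

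Libraries held 11268097 to 37128383 counted reads and 16577 to 20748 detected genes. The 9 genes had at least 7 reads in each of the 40 libraries, and 0 of the 9 was at 0 anywhere. Csf1r had the most reads (500 to 4248) and Cd68 the fewest (7 to 71). A length slope was computed for each library, the change in a gene's log2 level against its region's mean for each doubling of transcript length. It ran from 0.05 to 0.17 in 4 anterior cortex libraries (blast 8 and sham 11, 13 and 15) against -0.08 to -0.07 in the other 6 of that region, was -0.15 in hippocampus sham 14, and lay between -0.04 and 0.05 in the other 29 libraries. The summed level of 8 neuronal marker genes was 4424 to 8776 CPM (read counts scaled to library size) across all libraries.

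Level in sham brain was examined first, on a common scale of CPM over the 20 sham libraries, with per-kilobase values where genes are compared with each other. All 9 genes were lower in the cerebellum than in each of the other 3 regions on average, and most of these differences passed the test. edgeR called 9 of 9 genes higher in the amygdala than in the cerebellum (30.8% of 15695 genes were called in that direction), 8 of 9 higher in the anterior cortex than in the cerebellum (30.4%) and 7 of 9 higher in the hippocampus than in the cerebellum (27.9%). The median log2 differences were 1.84, 2.01 and 1.37. CPM are shares of a library's reads, so a lower value need not mean fewer microglia or less RNA per microglial cell. Fewer microglia and less RNA per microglial cell cannot be told apart in bulk tissue either. Each region is also its own table, so region and whatever else was particular to a table cannot be told apart.

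Csf1r, the receptor for CSF1 and interleukin 34 on which microglia depend, lies on chromosome 18 (56414488 to 56458300, plus strand, in the files' coordinates, whose build the sources do not state). Its sham level was 33.1, 38.9, 41.1, 41.1 and 43.2 CPM in the cerebellum and 85.2, 100.3, 101.5, 108 and 115 CPM in the hippocampus. It was 125, 134, 145, 162 and 174 CPM in the amygdala and 124, 141, 147, 187 and 209 CPM in the anterior cortex. The cerebellar libraries lay below every other sham library, the hippocampal ones lay below all of the amygdala and anterior cortex, and the last 2 regions overlapped. The means were 39.5 ± 3.9 CPM (SD, n = 5) in the cerebellum, 102 ± 11.1 for hippocampus, 148 ± 20.2 for amygdala and 162 ± 35.1 for anterior cortex. By edgeR the cerebellum was lower than the anterior cortex by a log2 of 2.03 ± 0.13 (SE, adjusted p = 3.85e-11), and the hippocampus was lower than the amygdala and the anterior cortex by a log2 of 0.54 ± 0.13 (adjusted p = 0.00442) and 0.66 ± 0.13 (adjusted p = 0.000387). Amygdala and anterior cortex were not called apart (edgeR adjusted p = 0.499). Per kilobase of the length the table gives, which in all 4 tables is longer than the length behind the deposited FPKM values for Csf1r (3982 against 2822 bases), Aif1 (1799 against 927) and Itgam (7433 against 3664), Csf1r was the highest of the 9 genes in each region, at 25.6 CPM per kilobase in the hippocampus, 37.2 in the amygdala, 40.6 in the anterior cortex and 9.91 in the cerebellum.

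Cx3cr1, the fractalkine receptor (chromosome 8, 128740756 to 128754514, minus strand), had the same order of regions. The values were 6.49, 7.71, 8.01, 8.74 and 10.4 CPM in the cerebellum, 13.8, 19.1, 19.8, 21.5 and 23.0 in the hippocampus, 25.4, 27.4, 28.2, 28.7 and 38.2 in the amygdala and 29.6, 35.7, 41.5, 41.6 and 57.2 in the anterior cortex. Hippocampal libraries lay wholly between the cerebellar ones and those of both other regions. The level was 4.96 times that of the cerebellum in the anterior cortex (log2 2.31 ± 0.18, adjusted p = 4.77e-10, edgeR), and Cx3cr1 was the only 1 of the 9 genes called between the amygdala and the anterior cortex (log2 -0.47 ± 0.17, adjusted p = 0.0488, 11.4% of genes called in that direction). That last call was lost in 12 of the 20 fits that left out 1 library each.

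P2ry12, the ADP receptor of surveying microglia, lies on chromosome 2 (149441598 to 149444548, minus strand) inside Med12l on the other strand. The sources do not state whether the counting used strand, so reads of the pair cannot be told apart. Its sham values were 6.70, 7.13, 7.54, 10.2 and 11.8 CPM in the cerebellum, 13.6, 18.1, 18.2, 23.0 and 27.6 in the hippocampus, 21.2, 25.7, 26.5, 29.8 and 32.3 in the amygdala and 19.0, 35.4, 38.8, 39.5 and 42.8 in the anterior cortex. Cerebellum was below every other library, and the remaining regions overlapped, with anterior cortex sham 15 at 19.0 CPM far under its group. P2ry12 was higher in the anterior cortex than in the hippocampus (log2 0.80 ± 0.21, adjusted p = 0.00464, edgeR) and than in the cerebellum (log2 2.01 ± 0.22, adjusted p = 1.09e-07). Med12l went the other way, at a log2 of -1.02 ± 0.23 for hippocampus minus cerebellum (edgeR adjusted p = 0.000704) and -0.86 ± 0.23 for amygdala minus cerebellum (adjusted p = 0.00285). It was not called for anterior cortex minus cerebellum (-0.38 ± 0.23, edgeR adjusted p = 0.153).

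Trem2, a receptor for lipids and apolipoproteins (chromosome 9, 14611561 to 14618013, minus strand), and Tyrobp, which encodes its signalling partner DAP12 (chromosome 1, 88875375 to 88879303, plus strand), were also low in the cerebellum. Trem2 was 3.04 to 4.85 CPM there, against 6.52 to 22.8 in the hippocampus, 14.01 to 22.8 in the amygdala and 5.82 to 24.3 in the anterior cortex. No cerebellar library reached any other library, while the other 3 regions overlapped and were not called apart. The mean was 4.74 times higher in the amygdala than in the cerebellum for Trem2 and 3.52 times for Tyrobp (log2 2.24 ± 0.34 and 1.81 ± 0.38, adjusted p = 8.5e-06 and 0.000346, edgeR). Tyrobp was 2.28 to 3.73 CPM in the cerebellum and 3.04 to 16.1 in the anterior cortex, so here the groups overlapped, through anterior cortex sham 13 and 15 at 3.04 and 3.63 CPM. Per kilobase the mean levels of Trem2 and Tyrobp were 11.5 and 15.2 CPM in the hippocampus, 16.5 and 18.4 in the amygdala, 15.3 and 13.9 in the anterior cortex and 3.48 and 5.25 in the cerebellum.

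Tmem119, a surface protein used to tell microglia from other macrophages (chromosome 12, 48598647 to 48605704, plus strand), had a ratio of mean levels to the cerebellum of 4.92 in the anterior cortex, 4.86 in the amygdala and 3.13 in the hippocampus. Its sham libraries ran from 2.91 to 6.35 CPM in the cerebellum and from 9.54 to 32.1 CPM elsewhere, without overlap. Aif1, which encodes the actin-binding protein IBA1 used to stain microglia (chromosome 20, 5161333 to 5166448, minus strand), ran from 4.11 to 5.01 CPM in the cerebellum and from 6.49 to 27.1 CPM elsewhere. Its highest level was in hippocampus sham 14 and its lowest forebrain level in anterior cortex sham 15. Both genes were called higher in each of the 3 other regions than in the cerebellum.

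Itgam and Cd68 had the smallest differences from the cerebellum. Itgam encodes CD11b, a chain of complement receptor 3 (chromosome 1, 199495298 to 199623960, plus strand, overlapping Itgax on the same strand), and Cd68 encodes a lysosomal membrane protein of phagocytes (chromosome 10, 56268720 to 56270640, minus strand). Itgam was 4.82, 5.21, 5.61, 5.63 and 7.52 CPM in the cerebellum, 4.85, 5.55, 7.77, 7.90 and 12.0 in the hippocampus, 7.32, 7.36, 9.31, 9.65 and 15.7 in the amygdala and 6.02, 9.02, 13.9, 14.2 and 16.3 in the anterior cortex. Cd68 was 0.771, 0.811, 1.07, 1.09 and 1.21 CPM in the cerebellum, 0.734, 1.03, 1.39, 1.44 and 1.53 in the hippocampus, 1.07, 1.89, 1.94, 1.96 and 2.99 in the amygdala and 0.693, 1.22, 1.29, 1.91 and 2.17 in the anterior cortex. In both genes the cerebellar libraries overlapped those of every other region. Against the cerebellum, Itgam was higher by a log2 of 1.04 ± 0.28 in the anterior cortex (adjusted p = 0.00303, edgeR) and 0.78 ± 0.28 in the amygdala (adjusted p = 0.0214), and was not called in the hippocampus (0.40 ± 0.28, adjusted p = 0.238). Cd68 was called only in the amygdala (log2 0.98 ± 0.33, adjusted p = 0.0138), and its differences were 0.56 ± 0.33 in the anterior cortex (adjusted p = 0.153) and 0.31 ± 0.33 in the hippocampus (adjusted p = 0.456). The amygdala call of Itgam was lost without the unnumbered amygdala sham library (adjusted p = 0.0968) and without cerebellum sham 11, 14, 15 or 33 (0.0548 to 0.0689), and that of Cd68 without amygdala sham 33 (0.0578) or cerebellum sham 15 (0.0503).

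**Figure D1:**
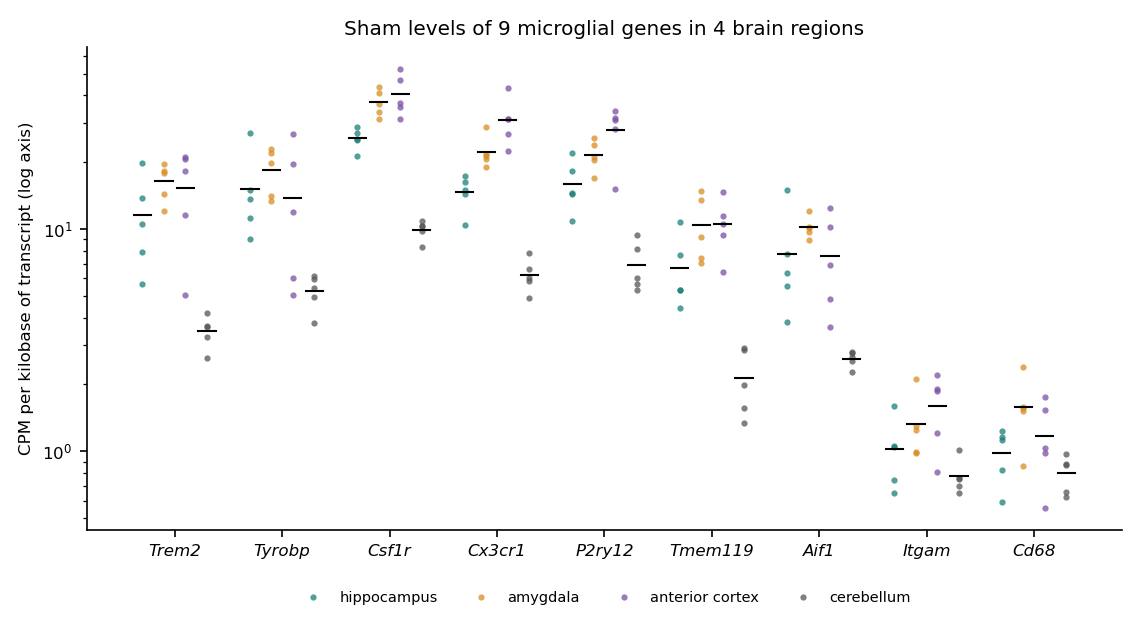
Level of each gene in CPM per kilobase of transcript (log axis) in the sham libraries of the 4 regions; points are libraries and lines are means of 5. Csf1r is highest in each region, Itgam and Cd68 are lowest, and the cerebellar points lie below the others for Csf1r, Cx3cr1, P2ry12, Trem2, Tmem119 and Aif1.

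Itgam and Cd68 were also set against Csf1r within each library, as the log2 ratio of a gene's reads to those of Csf1r, which needs no scaling between regions. The ratio was computed after the levels had been seen and uses the same reads, so it is given here as a description. A permutation test of these ratios, chosen after their differences were seen, is reported among the processing checks and is no independent support. Relative to Csf1r, Itgam was higher in the cerebellum than in the hippocampus, amygdala and anterior cortex by a log2 of 1.02, 1.17 and 1.04, and Cd68 by 1.10, 0.99 and 1.54. The mean log2 ratio of Itgam to Csf1r was -2.78 ± 0.20 (SD, n = 5) in the cerebellum and -3.80 ± 0.56 in the hippocampus, and that of Cd68 was -5.28 ± 0.25 and -6.38 ± 0.54. For both genes the 5 cerebellar libraries lay above the 5 of each other region, and the share of all genes that did so was not computed. Csf1r itself was lower in the cerebellum by a log2 of 1.37, 1.91 and 2.03 against hippocampus, amygdala and anterior cortex. A gene of equal level in all regions would therefore lie higher relative to it. The ratios of Itgam and Cd68 restate their small differences in level and show no rise in the cerebellum. The other 6 genes differed between the cerebellum and another region by -0.37 to 0.88 relative to Csf1r, and their libraries overlapped in each comparison. Tyrobp against the anterior cortex was the farthest (0.88), and was -0.090 without anterior cortex sham 11, 13 and 15 and hippocampus sham 11. Without those 4 libraries, Itgam and Cd68 differed from the anterior cortex by 1.05 and 1.28. With 1 cerebellar sham library left out, the Itgam differences were 0.94 to 1.21 and those of Cd68 0.93 to 1.64.

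**Figure D2:**
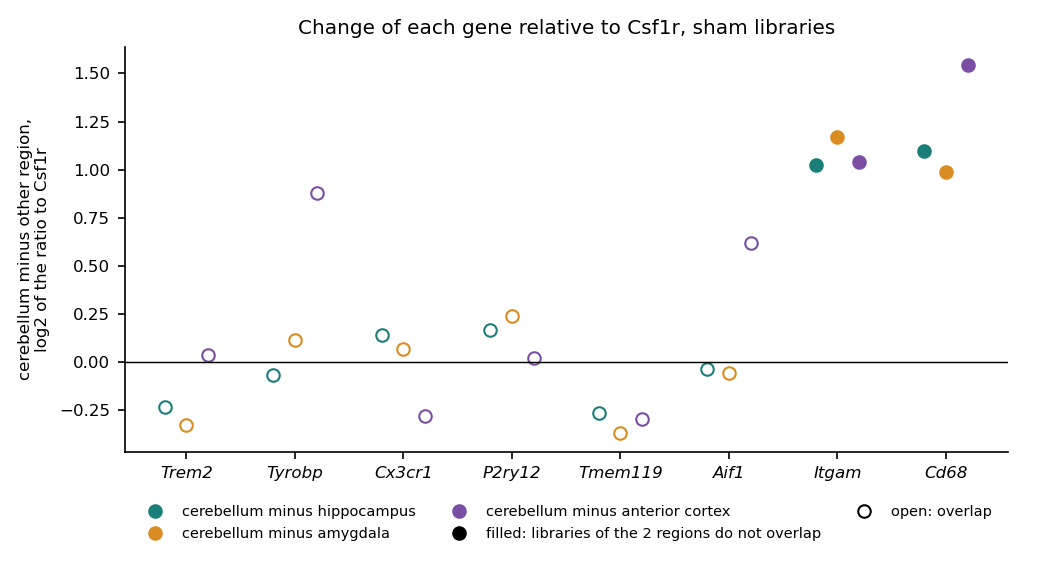
Difference between the cerebellum and each other region in the log2 ratio of a gene to Csf1r, sham libraries, 5 per region; filled points mark comparisons in which the libraries of the 2 regions do not overlap. The 6 filled points are Itgam and Cd68, between 0.99 and 1.54, and the other genes lie between -0.37 and 0.88.

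Among the other 3 regions, differences were smaller. The hippocampus was lower than the anterior cortex for 3 of 9 genes (Csf1r, Cx3cr1 and P2ry12, 21.7% of all genes called in that direction) and lower than the amygdala for 2 of 9 (Csf1r and Cx3cr1, 11.5%). Without hippocampus sham 14, Aif1 (log2 -0.79, adjusted p = 0.0371) and Tmem119 (log2 -0.88, adjusted p = 0.0256) were called lower in the hippocampus than in the amygdala as well. Without amygdala sham 33, 1 gene was called. Without anterior cortex sham 15, 5 genes were called lower in the hippocampus than in the anterior cortex, Tmem119 and Itgam being added.

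The lists around the 9 genes were read the same way. Of 21 further microglial identity genes tested, 19 were called higher in the amygdala than in the cerebellum, 19 in the anterior cortex and 18 in the hippocampus. Among all genes the shares called higher were 30.8%, 30.4% and 27.9%, and those called lower were 27.8%, 29.8% and 25.4%. These shares stand beside the 2 lists that follow as well. Sall1, a transcription factor of microglial identity that is also expressed outside microglia, was 15.8 ± 1.7 CPM (SD) in the cerebellum and 83.8 ± 12.5 in the anterior cortex, and P2ry13, a second purine receptor, was 2.09 ± 0.69 and 12.4 ± 2.3. Of 12 genes downstream of TREM2 and DAP12, 9, 10 and 10 were called higher in the hippocampus, amygdala and anterior cortex than in the cerebellum and 1, 1 and 0 lower. The higher ones included Syk (2.31 ± 0.51 CPM in the cerebellum, 9.13 ± 1.4 in the hippocampus) and Inpp5d, the phosphatase SHIP1 (6.75 ± 1.1 and 19.4 ± 2.8). The lower ones, named after their values were seen, were Plcg2, a phospholipase, in the hippocampus (log2 -0.87 ± 0.22, edgeR adjusted p = 0.00236) and Grb2, an adaptor protein, in the amygdala (log2 -0.30 ± 0.09, adjusted p = 0.00621). Of 6 genes of the C1q and C3 axis, 5 to 6 were called higher, with C1qa at 18.2 ± 2.5 CPM in the cerebellum and 43.9 ± 13.1 in the hippocampus.

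Ligands of the receptors were low in the cerebellum too. Il34, the neuronal ligand of Csf1r, was 5.77 ± 0.99 CPM in the cerebellum against 33.8 ± 5.6 for hippocampus, 44.6 ± 6.2 for amygdala and 28.3 ± 4.0 for anterior cortex. Cx3cl1, the ligand of Cx3cr1, was 63.2 ± 7.4 CPM in the cerebellum against 456 ± 35.1, 422 ± 58.2 and 405 ± 61.4. Csf1, the other ligand of Csf1r, singled out after its values were seen, was not called between any pair of regions, with log2 differences from the cerebellum of 0.10 to 0.21. Of 14 genes known to be raised in TREM2-dependent activated microglia, 5, 7 and 5 were called higher in the hippocampus, amygdala and anterior cortex than in the cerebellum (27.9%, 30.8% and 30.4% of all genes). Called lower were 3, 3 and 4 (25.4%, 27.8% and 29.8% of all genes). Spp1, a secreted phosphoprotein of that list, was 29.3 ± 3.6 CPM in the cerebellum and 0.61 ± 0.26 in the hippocampus.

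Markers of some other cell types differed in the same direction and those of others did not. Of 6 border macrophage genes tested, 5 were called higher in the amygdala than in the cerebellum, 4 in the anterior cortex and 1 in the hippocampus. Of 6 endothelial and mural genes, 6, 6 and 1 were called higher, and of 11 meningeal fibroblast genes, 10, 8 and 2. Among all genes the shares were 30.8%, 30.4% and 27.9%. Of 8 oligodendrocyte genes, 0, 3 and 2 were called higher and 5, 0 and 0 lower. Of 8 neuronal genes, 4, 4 and 4 were called higher and 3, 4 and 3 lower. Summed border macrophage levels were 8.08 to 14.8 CPM in cerebellar sham libraries and 27.8 to 61.5 CPM in amygdala sham libraries, and 0 of these genes was at 0 in all libraries of a region. Their part in the levels of the 9 genes was not tested.

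Blast was then compared with sham within each region, which asks whether microglial genes differ a year after exposure. For these comparisons CPM were scaled within a region. 0 of the 9 genes was called in any region by edgeR, and P2ry12 and Cd68 were the genes whose direction was the same everywhere with the largest mean differences. P2ry12 was lower in blast by a log2 of 0.19 to 0.50, and Cd68 was higher by 0.40 to 0.50. Trem2 and Itgam were also higher on average in all 4 regions and Tmem119 lower in all 4, by smaller amounts. Across all genes, 9.87% were lower and 8.35% higher in all 4 regions. Hippocampus had 0 of 15059 genes called (0%), amygdala 0 of 15280 (0%), anterior cortex 0 of 14918 (0%) and cerebellum 0 of 14769 (0%). At an unadjusted p under 0.05 there were 284 (1.89%), 1325 (8.67%), 644 (4.32%) and 683 (4.62%) genes, of which 1 was among the 9, P2ry12 in the anterior cortex. DESeq2 called 1, 9, 0 and 5 genes, 0 of them among the 9.

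P2ry12 was at 13.8, 15.3, 15.4, 15.7 and 19.4 CPM in the blast libraries of the hippocampus and at 13.5, 17.9, 18.1, 22.8 and 27.5 CPM in sham. In the amygdala it was at 14.5, 20.97, 21.1, 23.9 and 28.4 CPM in blast and at 21.3, 25.7, 26.4, 29.9 and 32.4 CPM in sham. In both regions 4 of 5 blast libraries were below the sham median and the groups overlapped. In the anterior cortex the blast libraries were at 21.3, 21.3, 24.3, 25.1 and 25.5 CPM and the sham libraries at 18.1, 33.2, 36.1, 38.0 and 40.8 CPM. All 5 blast libraries were below 4 of the 5 sham libraries, and sham 15 was below all of them. In the cerebellum the values were 7.11, 7.73, 8.37, 8.87 and 9.46 CPM in blast and 7.28, 7.86, 8.28, 11.2 and 12.8 CPM in sham, with 2 of 5 blast libraries below the sham median. The log2 differences were -0.33 ± 0.18 (SE, adjusted p = 0.998) in the hippocampus, -0.32 ± 0.15 (0.582) in the amygdala, -0.50 ± 0.19 (unadjusted p = 0.0207, adjusted p = 0.799) in the anterior cortex and -0.19 ± 0.16 (0.999) in the cerebellum, by edgeR. Without anterior cortex sham 15 the difference there was -0.65 (edgeR unadjusted p = 0.000122, adjusted p = 0.922). Single libraries moved it toward 0 elsewhere, to -0.18 without hippocampus sham 14, -0.20 without amygdala blast 4, and -0.12 and -0.064 without cerebellum sham 13 and sham 14. Med12l, which spans P2ry12, differed by -0.17 ± 0.19 in the anterior cortex and by -0.02 to 0.08 in the other regions.

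Cd68 was at 0.831, 1.07, 1.25, 2.25 and 2.64 CPM in blast and 0.726, 1.02, 1.38, 1.44 and 1.53 CPM in sham in the hippocampus. In the amygdala the values were 1.60, 2.65, 2.67, 3.07 and 3.83 CPM in blast and 1.07, 1.89, 1.94, 1.95 and 2.98 CPM in sham. Here 4 of 5 blast libraries were above the sham median, and in the hippocampus 2 of 5. In the anterior cortex the values were 0.796, 1.32, 1.79, 2.68 and 2.99 CPM in blast and 0.667, 1.16, 1.2, 1.82 and 2.03 CPM in sham. In the cerebellum they were 0.919, 1.45, 1.54, 1.79 and 1.97 CPM in blast and 0.850, 0.878, 1.17, 1.195 and 1.33 CPM in sham. In both of these regions 4 of 5 blast libraries were above the sham median, and the groups overlapped in every region. The log2 differences were 0.40 ± 0.36, 0.48 ± 0.29, 0.47 ± 0.44 and 0.50 ± 0.25 in the hippocampus, amygdala, anterior cortex and cerebellum (adjusted p = 0.998, 0.648, 0.807 and 0.999, edgeR). The hippocampal difference was 0.16 without Hip_666 and 0.25 without Hip_22, and that of the anterior cortex was 0.27 without blast 4 and 0.31 without sham 11. With 7 to 71 reads per library, counting error alone is large for this gene.

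The TREM2 pair was higher in blast in most regions, uncalled. Trem2 was at 4.16, 5.52, 5.53, 5.63 and 7.23 CPM in cerebellar blast libraries and at 3.29, 4.18, 4.60, 4.61 and 5.34 CPM in sham. 4 of 5 blast libraries were above the sham median, with a log2 difference of 0.35 ± 0.17 (unadjusted p = 0.0663, adjusted p = 0.999, edgeR). In the other regions its difference was 0.18 ± 0.29 (hippocampus), 0.01 ± 0.13 (amygdala) and 0.19 ± 0.33 (anterior cortex). Tyrobp was at 12.0 to 17.6 CPM in amygdala blast libraries and at 8.14 to 13.8 CPM in sham, a difference of 0.32 ± 0.16 (unadjusted p = 0.0727, adjusted p = 0.598), and was -0.08 ± 0.27 in the hippocampus. Trem2 and Tyrobp in the anterior cortex went to -0.03 and -0.06 once the 4 libraries with a positive length slope were left out, from 0.19 and 0.47.

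Csf1r and Cx3cr1 had no common direction. Csf1r differed by 0.08 ± 0.10 in the hippocampus, -0.12 ± 0.08 in the amygdala, -0.13 ± 0.17 in the anterior cortex and 0.13 ± 0.07 in the cerebellum. It was the most precisely measured of the 9 genes, and the mean over regions was -0.01 ± 0.06. Cx3cr1 was 0.22 ± 0.17 in the hippocampus and -0.32 ± 0.22 in the anterior cortex, where blast libraries ran from 22.2 to 42.2 CPM and sham libraries from 27.8 to 55.0 CPM. Tmem119 lay between -0.24 ± 0.25 and -0.12 ± 0.23, and the amygdala blast library Amy_666 at 30.7 CPM stood well above the other 4 blast libraries of its region (15.1 to 18.9). Aif1 ran from -0.11 ± 0.30 in the hippocampus to 0.29 ± 0.30 in the anterior cortex, and Itgam from 0.05 ± 0.17 to 0.26 ± 0.27.

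**Figure D3:**
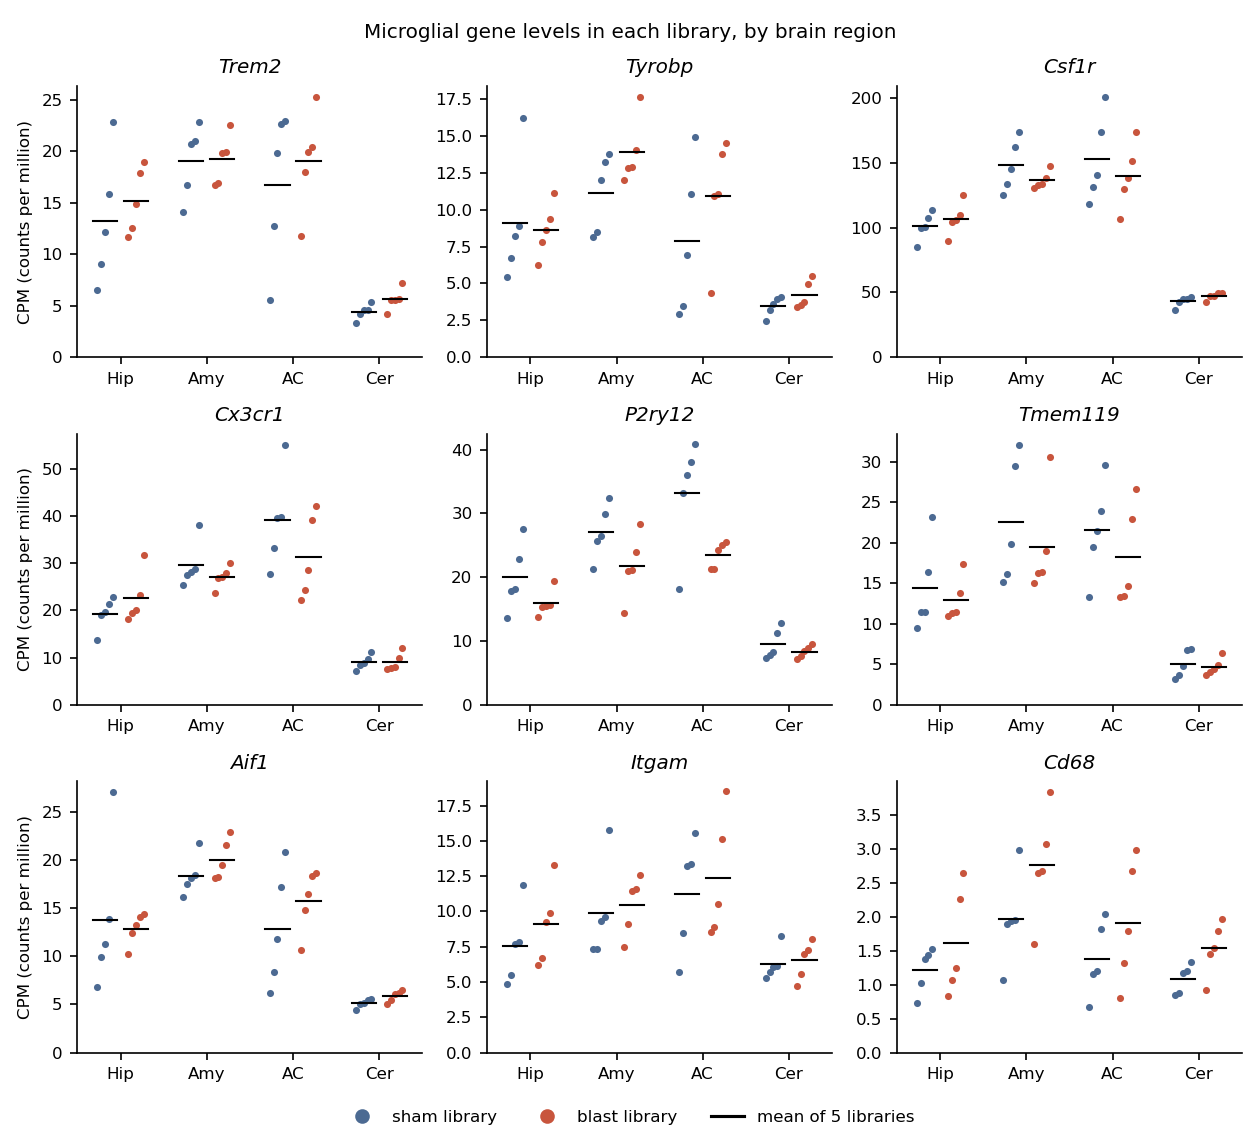
CPM of each gene in every library, scaled within a region (Hip, hippocampus; Amy, amygdala; AC, anterior cortex; Cer, cerebellum); blue points are sham, red points are blast and lines are means of 5. Blast and sham overlap in every panel and region, and the P2ry12 blast points of the anterior cortex (21.3 to 25.5 CPM) lie below all sham points but 1.

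Over the 4 regions together, limma-voom with the title number as a random block called 0 of the 9 genes and 1 of 16378 genes (0.00611%), with 2 of the 9 and 1369 of all genes (8.36%) at an unadjusted p under 0.05. The mean blast effect was -0.33 ± 0.10 for P2ry12 (limma, unadjusted p = 0.00228, adjusted p = 0.342), with 15 of 20 blast libraries below their region's sham median. It was 0.40 ± 0.18 for Cd68 (limma, unadjusted p = 0.0330, adjusted p = 0.575), with 14 of 20 above. The correlation of the block was estimated at 0.0209 over all genes, so the fit treated the libraries as nearly independent. Libraries that share a number may share an animal, and the counts above or below the sham median were not tested. Without the libraries numbered 15, P2ry12 alone of the 9 passed the threshold (-0.45, adjusted p = 0.0355, limma), and without those numbered 14 it was -0.24 (adjusted p = 0.246). Of the 11 fits that left out a number, it passed in 1, and these fits called 0 to 25 of all genes. Sham number 15 was the lowest of its group in 20 of 36 combinations of gene and region, among them Csf1r in all 4 regions. Whether the blast effect varied by region was tested by edgeR, which called 0 of the 9 genes and 0 of 16378 (0%), with 779 genes (4.76%) but 0 of the 9 at an unadjusted p under 0.05. The interaction p ran from 0.217 (Cx3cr1) to 0.996 (Cd68).

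**Figure D4:**
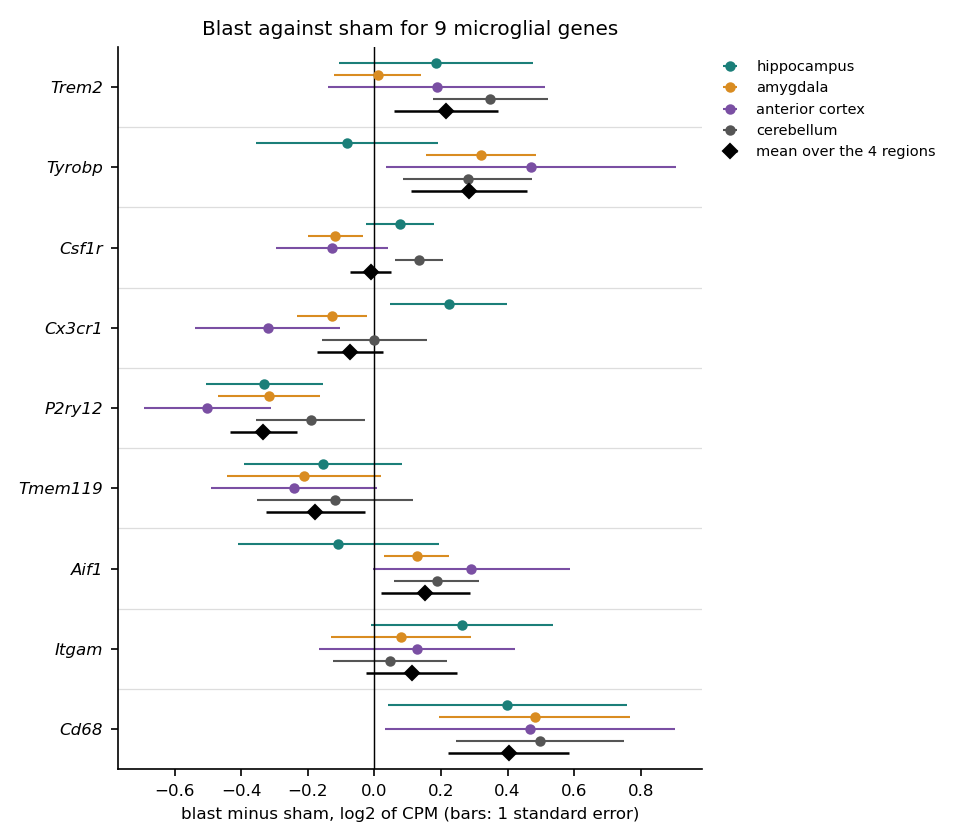
Blast minus sham for each gene on the log2 scale, by region (edgeR) and as the mean over regions (limma-voom, black diamonds); bars are 1 standard error. P2ry12 and Tmem119 lie left of 0 in all 4 regions, Trem2, Itgam and Cd68 lie right of 0, and none was called.

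Ratios within a library were tested because they do not depend on scaling. The log2 ratio of Trem2 to P2ry12 was higher in blast by 0.59 in the hippocampus, 0.36 in the amygdala, 0.76 in the anterior cortex and 0.51 in the cerebellum (n = 5 and 5, exact two-sided permutation p = 0.0317, 0.119, 0.0397 and 0.0238). Adjusted over the 16 ratio tests, the smallest p was 0.190, so 0 of 16 was called. In the hippocampus the ratio ran from -0.43 to 0.30 in blast and from -1.06 to -0.27 in sham, and in the cerebellum from -0.77 to -0.39 and from -1.95 to -0.66. The groups overlapped in both. The ratio of Cd68 to P2ry12 was higher in blast by 0.60, 0.83, 0.86 and 0.63 in the same order of regions (exact p = 0.167, 0.0476, 0.175 and 0.0635, adjusted p = 0.254, 0.190, 0.254 and 0.203). Tyrobp to Trem2 and Cx3cr1 to P2ry12 ran from -0.30 to 0.32 and from 0.12 to 0.51. The libraries are the same as in the tests of single genes, so these ratios are not independent of them.

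In the wider lists, 0 genes were called in any blast comparison by edgeR or limma. Mertk, a phagocytic receptor for apoptotic cells that is also expressed by astrocytes, was the gene with the smallest p in the microglial identity list in each comparison. It was lower in blast by 0.23 ± 0.10 in the hippocampus, 0.25 ± 0.11 in the amygdala, 0.38 ± 0.17 in the anterior cortex and 0.23 ± 0.09 in the cerebellum, and by 0.26 ± 0.07 over the regions (limma, unadjusted p = 0.000514, adjusted p = 0.234). Of the 21 tested identity genes 13 were higher and 8 lower on average, with a median of 0.01, next to 5 of 9 higher and a median of 0.11 for the 9 genes and 0.01 for all genes. Among all genes 52.8% were higher on average. The genes of a list share libraries, and the counts of higher genes in this and the following lists were not tested. Of 12 genes downstream of TREM2 and DAP12, 5 were higher, with Inpp5d at -0.13 ± 0.06 (limma, unadjusted p = 0.0236, adjusted p = 0.543). Of 16 genes of the activated program 12 were higher, with B2m at 0.18 ± 0.08 (limma, unadjusted p = 0.0372, adjusted p = 0.575). The ligand Il34 was 0.17 ± 0.07 higher (limma, unadjusted p = 0.0170, adjusted p = 0.526). Of 6 C1q and C3 genes 5 were higher, with C1qa at 0.22 ± 0.17.

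Markers of other cells varied between libraries beside these values, and 0 of them was called between blast and sham by edgeR or limma. In the cerebellum all 11 meningeal fibroblast genes were higher in blast (median log2 0.81, 7 at an unadjusted p under 0.05, 0 called), and so were 4 of 5 border macrophage genes, among them F13a1 (0.95 ± 0.30) and Mrc1 (0.68 ± 0.26). Among all genes there, 51.1% were higher and 4.62% had an unadjusted p under 0.05 (edgeR). Summed meningeal fibroblast levels were 366 and 299 CPM in cerebellar blast 22 and 8, against 135 to 160 CPM in the other blast libraries. They were 48.8 and 53.1 CPM in cerebellar sham 11 and 15, against 121 to 197 CPM in the other sham libraries. Summed border macrophage levels were 12.2 to 18.1 CPM in cerebellar blast libraries and 8.08 to 14.8 CPM in sham. Summed choroid plexus levels in the hippocampus were 9180 and 10905 CPM in the blast libraries Hip_666 and Hip_8 and 6462 CPM in sham 11, against 118 to 445 CPM in the other 7 libraries. In the cerebellum they were 3649 and 2825 CPM in blast 22 and 8 and 1713 CPM in sham 33, against 159 to 277 CPM elsewhere. Without these 3 hippocampal libraries (Hip_8, Hip_666 and Hip_11), the P2ry12 difference was -0.46 and Cd68 0.39 there. The part of these cells in the cerebellar values was not tested.

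The 9 genes did not vary as 1 group between libraries. Over the 40 libraries, after removing the mean of each region and exposure group, Tyrobp and Aif1 (r = 0.75), Trem2 and Aif1 (0.73) and Trem2 and Tyrobp (0.71) went together, as did Cx3cr1 and Csf1r (0.62). Cx3cr1 and Aif1 went apart (r = -0.35), and Cd68 had at most 0.41 with any of the others. These correlations describe points that share libraries, depth and RNA composition. Against the length slope, the same deviations had r = -0.84 for Aif1, -0.79 for Tyrobp, -0.70 for Trem2, -0.36 for Cd68, -0.35 for Tmem119, -0.27 for P2ry12, 0.08 for Csf1r, 0.11 for Itgam and 0.54 for Cx3cr1. In the anterior cortex the 4 libraries with a positive slope had 6.18 to 11.8 CPM of Aif1 and 2.90 to 6.95 CPM of Tyrobp, against 14.8 to 20.8 and 10.9 to 14.96 CPM in the other 6, with no overlap. Cx3cr1 was 39.2 to 55.0 CPM in those 4 and 22.2 to 42.2 CPM in the other 6, and P2ry12 overlapped, at 18.1 to 40.8 and 21.3 to 36.1 CPM. 3 of those 4 libraries are sham and 1 is blast.

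**Figure D5:**
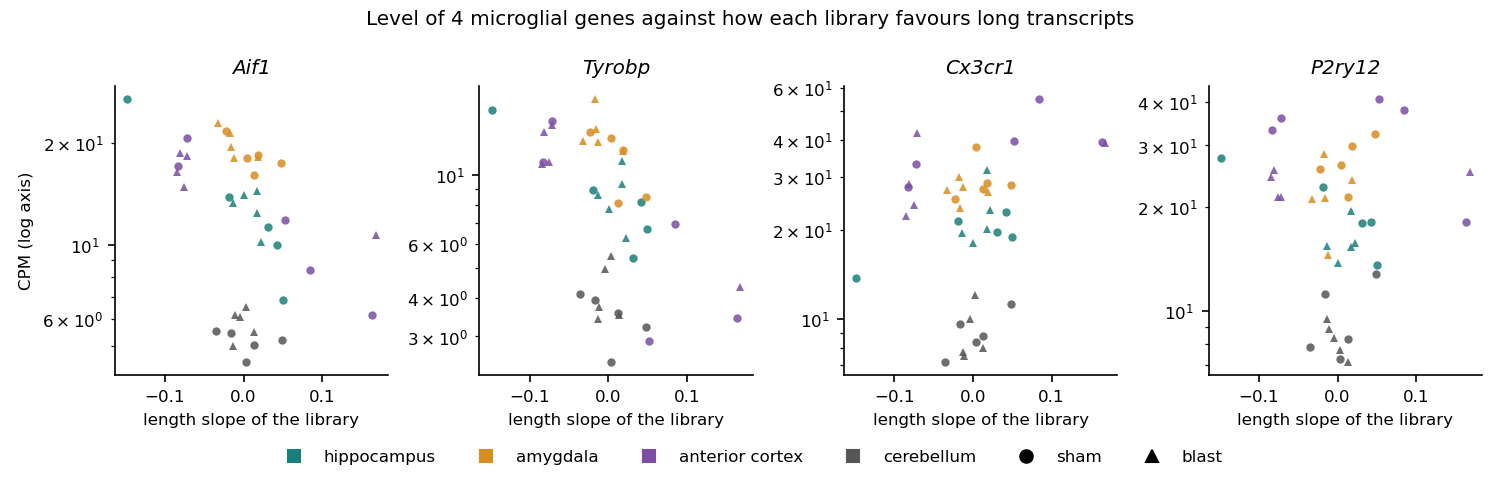
Level of 4 genes in each of the 40 libraries (CPM, log axis) against the library's length slope; colours are regions, circles sham and triangles blast. Aif1 and Tyrobp are lower at higher slopes, most clearly in the anterior cortex, Cx3cr1 is higher, and P2ry12 has no such order.

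Among the 10 genes whose deviations were most like the mean of the 9 genes, out of 13958 ranked over 40 libraries, were Efhd1 (r = 0.83), Tmem176b, Ctss, S1pr1, Mlc1, Sipa1, Slc1a3, Ifngr1 and Srebf1 (0.80). Ctss, which encodes a lysosomal protease, is on the microglial identity list, and Slc1a3, a glutamate transporter, is on the astrocyte list. Of the 9 genes, Trem2 was closest to the mean of the other 8 (r = 0.73) and Cx3cr1 farthest (0.04), followed by Cd68 (0.07) and Itgam (0.15).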

How the data were processed

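Bulk RNA-seq of 40 rat brain libraries was analysed from 4 tables, 1 per region. Read counts per Ensembl gene, not normalized, were deposited by the authors, with their own log2 fold change and p-value for blast against sham and a gene length in bases, per the file headers. FPKM values, also deposited by the authors, were used only to find the gene length behind them. The submitters' processing notes name CASAVA; aligner, counter, strand setting and build are not stated there. Total RNA was extracted with Qiazol and RNeasy and libraries were made with the NEBNext Ultra kit, per the labels.

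Blast and sham were compared in each region with edgeR 4.0.16 (quasi-likelihood test, TMM scaling, filterByExpr) in R 4.3.3, and sham levels between regions in 1 edgeR fit of the 20 sham libraries. The mean effect over regions used limma 3.58.1 (voom, title number as a random block with 11 levels). p-values were adjusted by Benjamini-Hochberg over all genes tested and called at 0.05. Ratios of reads within a library had 0.5 added to each count and exact two-sided permutation tests. Alternatives were DESeq2 1.42.0, RLE scaling, no low-count filter, leaving out libraries, the number as a block and, chosen after seeing the data, the length slope as covariate and the ratios to Csf1r. No 2 libraries of a group agreed within sampling noise (smallest chi-square per degree of freedom 6.30). The edgeR script was tested on simulated data.

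The 9 genes and the lists were chosen with earlier results of these data known. Of 173 listed names 161 matched. The 9 genes are named throughout; from other lists, the called genes with the smallest p (at most 4) or, with none called, the 2 smallest, and for sham levels at most 4 with the widest range over regions; and the 10 genes most like the mean of the 9. 1 of those 10 is not reported here. Promoters came from RefSeq (GRCr8).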

Additional observations from a re-analysis of the deposited data

Results flagged for a closer look

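Of 72 groups of 5 libraries (9 genes, 4 regions, blast or sham), 4 held a library far from the other 4, its gap to the nearest divided by the whole range being above 0.71. Chance does this in about 1 in 20 groups. Cx3cr1 was 38.0 CPM in amygdala sham 33 against 25.3 to 28.8 in the others (ratio 0.729). Itgam was 15.7 CPM in the unnumbered amygdala sham library against 7.35 to 9.62 (0.729), and 8.28 CPM in cerebellum sham 13 against 5.31 to 6.12 (0.729). Tmem119 was 30.7 CPM in the blast library Amy_666 against 15.1 to 18.9 (0.752).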

How the results depend on the processing

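Single genes changed sides in few settings. With the length slope as covariate, the blast difference was 0.13 for Tyrobp and 0.19 for Aif1 in the hippocampus, -0.016 for Trem2 in the amygdala and -0.021 in the anterior cortex, and 0.040 for Cx3cr1 in the cerebellum, and between sham hippocampus and anterior cortex it was -0.046 for Tyrobp and -0.24 for Aif1. Without anterior cortex blast 8 and sham 11, 13 and 15, the anterior cortex blast differences were -0.031, -0.058 and -0.16 for Trem2, Tyrobp and Aif1. Without 7 libraries (these and Hip_8, Hip_666 and Hip_11) the mean effect of Cx3cr1 was 0.0042. Without the 4 sham libraries among them, Tyrobp and Aif1 were -0.54 and -0.42 for hippocampus minus anterior cortex, and Trem2, Tyrobp and Aif1 were -0.25, -0.32 and -0.14 for amygdala minus anterior cortex. The log2 ratios to Csf1r, cerebellum minus anterior cortex, were then -0.46 for Trem2, -0.090 for Tyrobp, 0.053 for Cx3cr1, -0.084 for P2ry12 and -0.062 for Aif1. Those of Itgam and Cd68 were 1.05 and 1.28 and were no longer called (exact permutation adjusted p = 0.190 for each). Of the anterior cortex only sham 14 and 33 then remained. An exact test with so few arrangements could hardly call any difference, so these lost calls do not bear on the ratios. In the 20 fits that left out 1 sham library each, the Itgam call was lost in 5 against each of the other regions. The Cd68 call was lost in 6 against hippocampus, 6 against amygdala and 5 against anterior cortex. Among these were Cd68 against hippocampus without its sham 33 (0.89) and against amygdala without its sham 15 (0.85). Each of the last 2 had an exact permutation adjusted p = 0.0635. Leaving out a library also lowers the number of arrangements of the exact test. The cause was not tested.

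Genes called for blast numbered 1, 9 and 5 in the hippocampus, amygdala and cerebellum with DESeq2, 2 in the amygdala without a filter and 2 in the anterior cortex without 4 libraries. For the mean effect they were 2 without the block, 0 without the 7 libraries and 5 with the slope. Of the 9 genes, the slope gave 6 called for hippocampus against amygdala (4902 genes), 5 against anterior cortex, and 2 between amygdala and anterior cortex (5718 genes). Without the 4 sham libraries the last gave 0 (1125 genes) and hippocampus against anterior cortex 4011 genes. A fit of all 40 libraries gave 5 for hippocampus against anterior cortex.

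Same-numbered libraries deviated together in some pairs but not in all (10 of 27 over 0.1, r from -0.17 to 0.48, best match in 11 of 27), so the numbers were not taken to pair samples, though the fit of the mean effect kept them as a random block. With the number as a replicate block, 4 of the 9 genes were called for hippocampus against amygdala, 5 against anterior cortex and 0 between amygdala and anterior cortex (2243 genes), and Cd68 was not called between amygdala and cerebellum (0.96, adjusted p = 0.0523).

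Leaving out each library in turn, genes called ran from 0 to 1 (hippocampus), 0 to 2 (amygdala) and 0 to 1 (cerebellum). For the mean effect each title number was left out across regions, which gave 0 to 25 genes, 0 to 1 of the 9, and a Csf1r average of -0.074 to 0.046. Of the 9, sham calls ran from 1 to 4 for hippocampus against amygdala, 3 to 5 against anterior cortex and 0 to 1 for amygdala against anterior cortex. Of the 24 ratios to Csf1r, an exact permutation test chosen after their differences were seen, which is no independent support, called 6 with all libraries and 0 to 6 with 1 left out. Blast differences crossed 0 for Tyrobp (-0.21 to 0.24), Aif1 (-0.28 to 0.29) and Tmem119 (-0.28 to 0.090) in the hippocampus, Trem2 (-0.085 to 0.082) and Itgam (-0.011 to 0.31) in the amygdala, Trem2 (-0.028 to 0.33) and Itgam (-0.066 to 0.28) in the anterior cortex, Cx3cr1 (-0.13 to 0.088), Tmem119 (-0.25 to 0.016) and Itgam (-0.037 to 0.17) in the cerebellum. Sham differences did so for Tyrobp (-0.18 to 0.50) and Aif1 (-0.37 to 0.27) in hippocampus minus anterior cortex and Trem2 (-0.12 to 0.23) and Tmem119 (-0.18 to 0.12) in amygdala minus anterior cortex. Ratios did so for Cx3cr1 to P2ry12 in the anterior cortex (-0.032 to 0.34) and Tyrobp to Trem2 in the cerebellum (-0.20 to 0.10), and to Csf1r, cerebellum minus another region, for Trem2 (-0.23 to 0.19) and P2ry12 (-0.10 to 0.13) against anterior cortex, Tyrobp (-0.27 to 0.17) and Aif1 (-0.19 to 0.25) against hippocampus, and Tyrobp (-0.012 to 0.24) and Aif1 (-0.14 to 0.041) against amygdala.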

Other observations

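Phagocytic receptors outside the 9 genes were compared between regions in sham brain. Of 14 tested, 7, 9 and 10 were called higher in the hippocampus, amygdala and anterior cortex than in the cerebellum by edgeR, where 27.9%, 30.8% and 30.4% of all genes were. Called lower were 4, 2 and 1, beside 25.4%, 27.8% and 29.8% of all genes. Itgb2, the integrin chain that pairs with the product of Itgam, was 3.85 ± 0.39 CPM (SD, n = 5) in the cerebellum against 8.18 ± 1.3, 11.8 ± 3.0 and 13.8 ± 4.3 elsewhere (log2 1.09 ± 0.21, 1.61 ± 0.21 and 1.84 ± 0.22, adjusted p = 0.000208, 1.7e-06 and 2.98e-07), so it was called in the hippocampus, where Itgam was not. The Fc receptor Fcgr1a was 0.737 ± 0.17 CPM in the cerebellum and 2.01 ± 0.81, 2.72 ± 0.50 and 2.79 ± 0.45 elsewhere. Cd14, a coreceptor for bacterial lipopolysaccharide, was singled out after its values were seen, and its test result is not given here. Its cerebellar mean was 2.19 ± 0.98 CPM, above those elsewhere (1.23 ± 0.40, 1.24 ± 0.35 and 0.829 ± 0.30). Its log2 range over regions was 1.40, and Msr1 (2.45), Itgav (2.03) and Tlr2 (2.02) had wider ranges. Msr1 and Tlr2 had their lowest means in the cerebellum. Itgav was 57.0 ± 7.21 CPM there, above the hippocampus (31.8 ± 9.98) and amygdala (43.8 ± 8.05) and below the anterior cortex (130 ± 62.6).

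With blast, Itgb2 was 0.41 ± 0.13 higher in the cerebellum (unadjusted p = 0.00743, adjusted p = 0.960, edgeR), beside Ptpn6, a phosphatase, at 0.45 ± 0.16 and Lgals3, a galectin, at 1.03 ± 0.36. Lgals3 had few reads, with a mean of 0.702 ± 0.40 CPM (SD) in the cerebellar sham libraries. The integrin chain Itgb5 was 0.33 ± 0.10 lower in the amygdala and 0.47 ± 0.17 lower in the anterior cortex, and Cd163, a scavenger receptor of border macrophages, was lower on average by 0.63 ± 0.23 (adjusted p = 0.448, limma). None of these passed the threshold. The authors' deposited differences belong to the same libraries and are no independent support. In them P2ry12 was lower in all 4 regions (log2 -0.21, -0.19, -0.39 and -0.07 in the hippocampus, amygdala, anterior cortex and cerebellum). The authors' adjusted p was 0.99983 in the hippocampus, 0.995 in the anterior cortex and 0.99961 in the cerebellum, and none is given for the amygdala.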
